A study of Mus musculus with 42 samples.

Results

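The genes studied were the 4 members of the TCF/LEF family, Lef1, Tcf7, Tcf7l1 and Tcf7l2, chosen by name among 21938 protein-coding genes of the mouse annotation. Each was described by the ChIP-seq peaks that overlapped its gene body extended by 10 kb on either side. Of the 600000 peaks that make up the 20000 best of each of 30 libraries, 513 lay at these loci, and of the 9218878 peaks of the complete lists, 3380 did.

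TCF/LEF proteins are the DNA-binding factors of the canonical WNT pathway. Without a WNT signal they recruit TLE corepressors to their target genes. When the signal stabilises β-catenin, it enters the nucleus, binds the same factors and turns the targets on. TCF7L1 is best known as the repressing member in pluripotent cells, where it limits the pluripotency genes, LEF1 and TCF7 are the members most often linked to activation, and TCF7L2 can do both. Genes of the family are themselves known targets of the pathway, and SOX2 is a pluripotency and neural factor that shares many enhancers with it in the epiblast.

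The cells were differentiated from HM1 (129) embryonic stem cells and fixed at 72 h. All groups were grown in N2/B27 medium with bFGF and LGK974, a drug that blocks the secretion of WNT ligands. In the last day CHIR99021 (CHIR), a GSK3 inhibitor that stabilises β-catenin, was added, except in the noCHIR group. The study calls cells kept without CHIR epiblast-like and those given CHIR caudal epiblast-like. SOX2, β-catenin and LEF1 were each immunoprecipitated from 3 wild-type (WT) cultures, 3 cultures with the genotype Cdx1/2/4-/- (CdxKO) and 3 with T/Bra-/- (T/BraKO), all with CHIR. SOX2 was also immunoprecipitated from 3 WT noCHIR cultures, which made 10 groups of 3 libraries. β-catenin and LEF1 were measured only with CHIR, so the effect of CHIR at these loci could be read for SOX2 alone. Genotype was carried by different cell lines, and line and genotype cannot be told apart here. The labels call the 3 libraries of a group biological replicates, and every p-value below measures the spread between such libraries. All comparisons of WT with a mutant, and the comparison of WT CHIR with WT noCHIR for SOX2, use the same 3 WT CHIR libraries of the factor.

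Peaks had been called in each library separately, and no total of reads is given with them, so the depth behind each value is unknown. The lists held 26940 to 1008922 peaks, and the longest was WT CHIR SOX2 replicate 1. To set lists of such different length side by side, peaks were ranked in each list by −log10 q, with rank 1 the strongest, and the 20000 best were used. The −log10 q of the last peak kept ranged from 3.26 in T/BraKO SOX2 replicate 3 to 14.1 in WT CHIR SOX2 replicate 1, so being among the best did not mean the same strength of evidence in every library. The fold enrichment quoted for a peak is the signal at its summit over the local background.

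The sites that the results turn on are shown first. Sites are peaks of any library that overlapped by at least 1 bp, and a distance is counted from the annotated gene start, along the gene. Each line gives 121 bases of the mm10 plus strand centred on the summit of the strongest peak of the named factor at that site. Capitals mark the matches to a motif: TCF/LEF (CTTTGAA or CTTTGAT), SOX (CCATTGT or CCTTTGT), CDX (CCATAAA as well as CAATAAA and also TCATAAA and likewise TAATAAA), T-box (AGGTGTGA) and the octamer ATGCAAAT of POU factors, each searched on both strands. No single stretch can match both the TCF/LEF and the SOX letters. The octamer was added after the sequences had been seen. A match is only a match of letters, and its absence from a window says nothing of the factor.
Lef1, 8.02 kb upstream, SOX2 summit, chr3:131102388-131102508: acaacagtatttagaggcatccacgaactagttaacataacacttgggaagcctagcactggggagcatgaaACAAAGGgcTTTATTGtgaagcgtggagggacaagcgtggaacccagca
Lef1, 4.37 kb upstream, β-catenin summit, chr3:131106037-131106157: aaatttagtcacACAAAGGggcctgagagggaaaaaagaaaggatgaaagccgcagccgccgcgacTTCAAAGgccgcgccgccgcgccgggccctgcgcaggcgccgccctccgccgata
Lef1, 4.37 kb upstream, LEF1 summit, chr3:131105875-131105995: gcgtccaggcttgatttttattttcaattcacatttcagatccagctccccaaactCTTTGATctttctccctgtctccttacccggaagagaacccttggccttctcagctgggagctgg
Lef1, 34.0 kb downstream, SOX2 summit, chr3:131144362-131144482: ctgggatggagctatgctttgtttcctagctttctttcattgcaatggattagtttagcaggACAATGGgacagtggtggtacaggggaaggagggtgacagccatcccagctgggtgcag
Tcf7, 3.54 kb upstream, SOX2 summit, chr11:52286499-52286619: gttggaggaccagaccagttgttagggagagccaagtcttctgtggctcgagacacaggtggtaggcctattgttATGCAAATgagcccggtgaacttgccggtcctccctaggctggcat
Tcf7, just upstream of the start, β-catenin summit, chr11:52283314-52283434: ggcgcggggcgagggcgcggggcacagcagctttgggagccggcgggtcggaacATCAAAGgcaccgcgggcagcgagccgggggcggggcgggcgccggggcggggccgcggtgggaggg
Tcf7l1, 0.45 kb downstream, LEF1 summit, chr6:72788745-72788865: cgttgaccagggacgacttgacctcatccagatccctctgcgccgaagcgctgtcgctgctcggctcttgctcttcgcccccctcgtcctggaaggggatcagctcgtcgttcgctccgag
Tcf7l1, 35.2 kb downstream, β-catenin summit, chr6:72753954-72754074: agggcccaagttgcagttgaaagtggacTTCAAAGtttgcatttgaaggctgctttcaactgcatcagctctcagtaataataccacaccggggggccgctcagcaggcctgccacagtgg
Tcf7l2, 50.9 kb downstream, LEF1 summit, chr19:55792660-55792780: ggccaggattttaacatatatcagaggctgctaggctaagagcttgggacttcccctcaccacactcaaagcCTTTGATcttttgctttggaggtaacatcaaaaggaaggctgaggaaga

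In these windows the 8.02 kb upstream site of Lef1 held a SOX match (ACAAAGG on the printed strand) and a CDX match (TTTATTG) next to each other. At the 4.37 kb upstream site the window of the β-catenin summit held a SOX and a TCF/LEF match, and that of the LEF1 summit held a TCF/LEF match 4 bases from the summit, chr3:131105931-131105937. The Tcf7 site at 3.54 kb held the octamer and no SOX match, and the windows near the Tcf7 start, in the Tcf7l1 intron and in the Tcf7l2 intron each held 1 TCF/LEF match. The window at the start of Tcf7l1, where the strongest LEF1 peaks of the family lay, held none of the motifs searched.

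Together the 4 loci held 143 sites. Of these, 113 lay in an intron of the member itself and 19 between genes. Most sites were called in 1 library only (106, or 74.1%, against 83.7% of the 336403 sites of the whole series), and 10 were called in at least 15 of the 30 libraries (6.99%, against 1.28% of all sites). Lef1 and Tcf7l1 each held 3 of those 10, and Tcf7 and Tcf7l2 each held 2. These shares are descriptions, and no test was made of them. The map of summits along each gene shows the recurrent sites as columns of ticks.

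**Figure D1:**
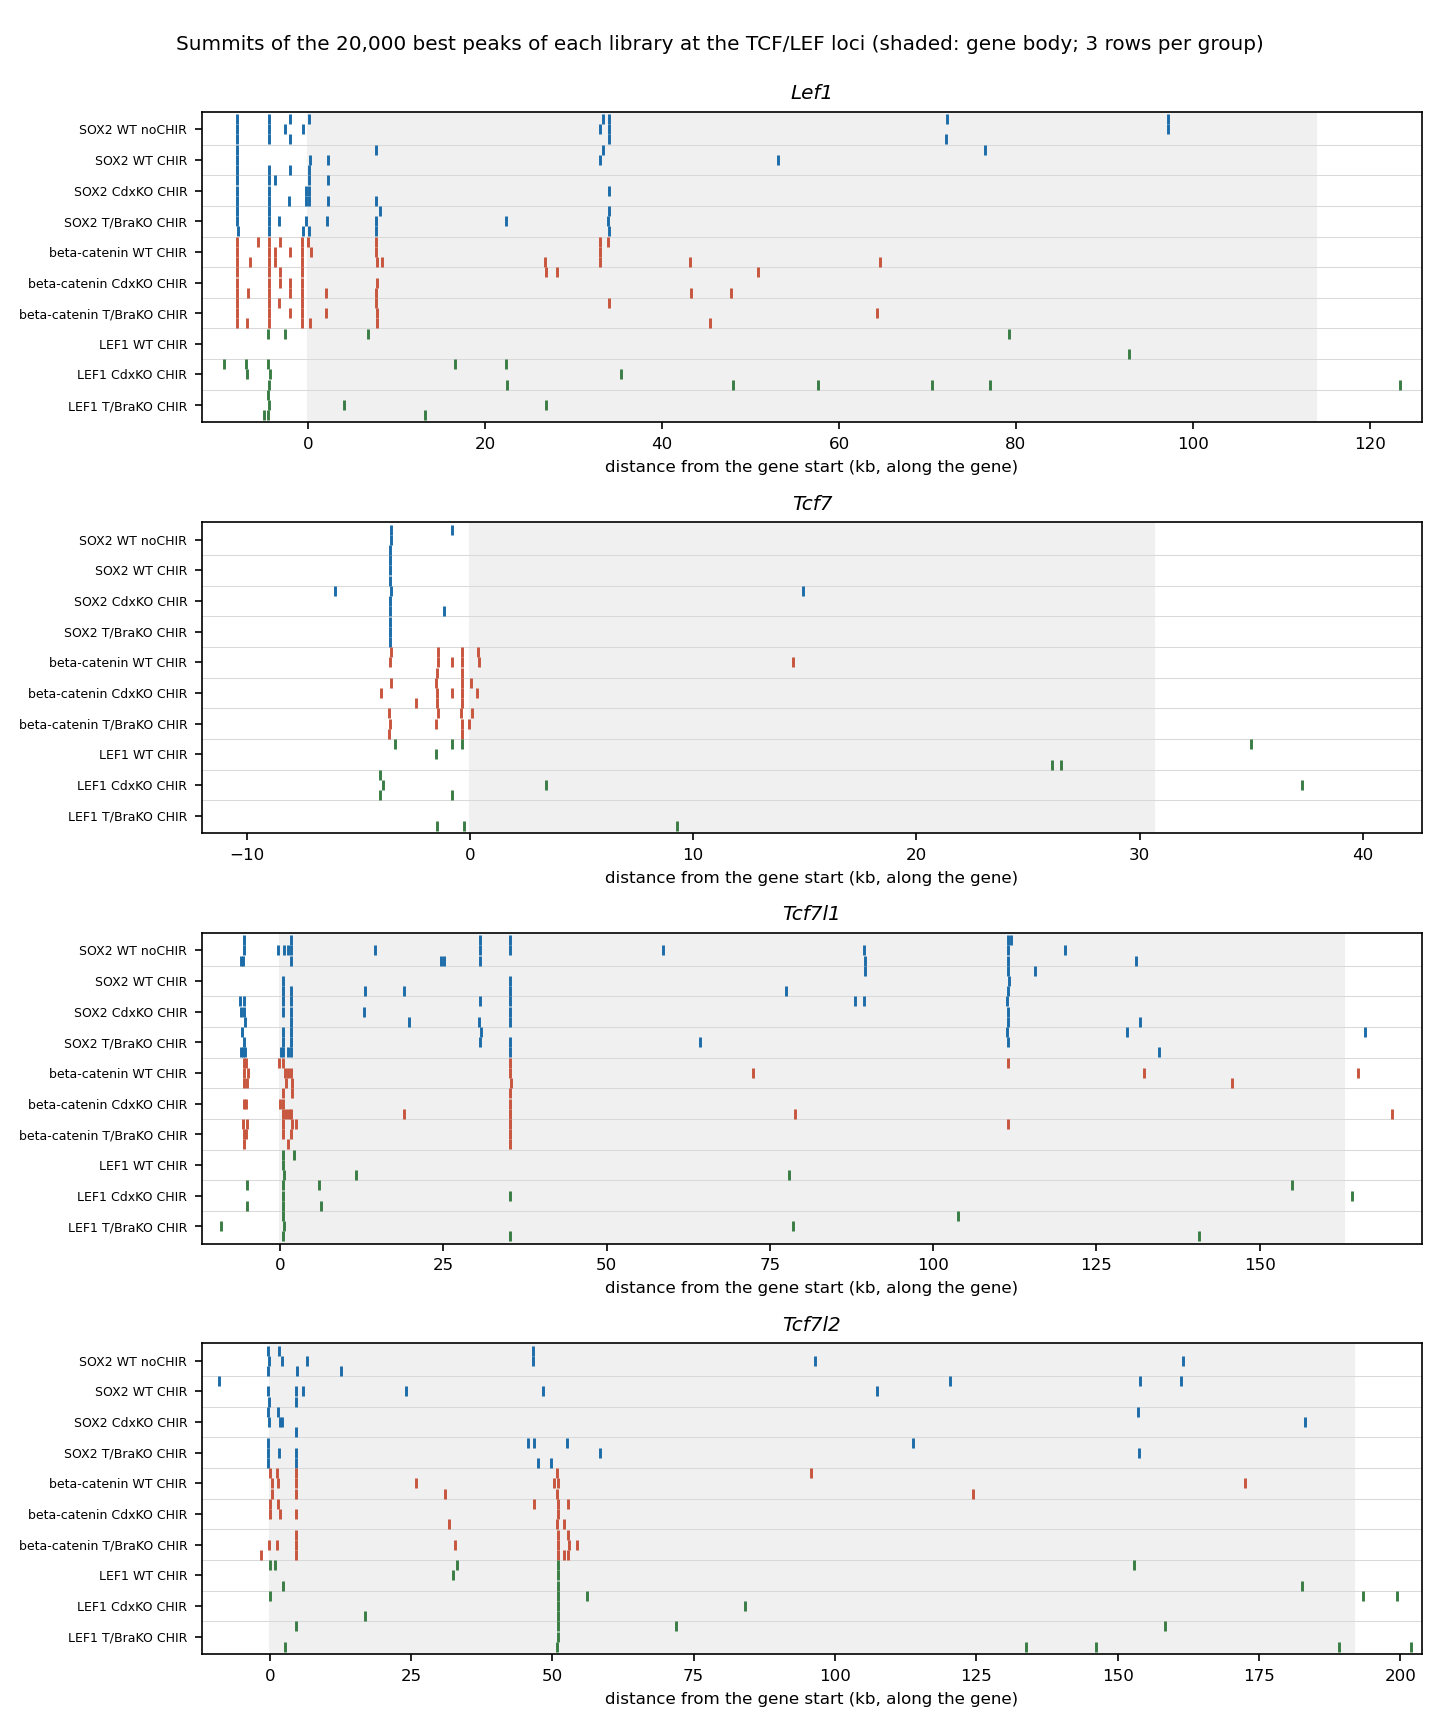
Summits of the 20000 best peaks of every library at the 4 loci. The horizontal axis is the distance from the gene start in kb along the gene, each row is 1 library (3 rows per group, SOX2 blue, β-catenin red, LEF1 green) and the gene body is shaded. Columns of ticks run through most SOX2 and β-catenin rows upstream of Lef1, through all SOX2 rows upstream of Tcf7, through the LEF1 rows at the Tcf7l1 start, and through all β-catenin and LEF1 rows in the Tcf7l2 intron.

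Lef1 (chr3:131110471-131224356, plus strand) encodes the family member that was itself immunoprecipitated. The sites with the best mean log rank for each of the 3 factors lay upstream of its start, between genes. At the 8.02 kb site SOX2 was called in 12 of 12 libraries and β-catenin in 9 of 9, but LEF1 in 0 of 9. In the whole series 43 sites had that pattern, a description only, as the pattern was taken from the calls of this site. SOX2 ranks there were 43, 304 and 307 in WT noCHIR, 1335, 1937 and 376 in WT CHIR, 329, 358 and 969 in CdxKO and 496, 113 and 826 in T/BraKO. The 3 noCHIR libraries thus ranked the peak above the 3 WT CHIR libraries, CdxKO overlapped WT CHIR only, and T/BraKO overlapped both. β-catenin ranks ran from 1286 to 15192, with the genotypes overlapping. In the complete LEF1 lists a peak at this site appeared only in WT replicates 1 and 3, at ranks 118860 and 100233.

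The 4.37 kb site of Lef1 was the strongest β-catenin site of the family by mean log rank. It was called in 9 of 9 β-catenin, 10 of 12 SOX2 and 7 of 9 LEF1 libraries. β-catenin ranks were 201, 708 and 240 in WT, 233, 189 and 228 in CdxKO and 304, 205 and 106 in T/BraKO. Fold enrichment there was 38.6 ± 20.1 in WT, 50.1 ± 1.16 in CdxKO and 59.4 ± 12.3 in T/BraKO (SD, n = 3), and the 3 groups overlapped. LEF1 was called in 1 of 3 WT libraries (rank 271) but in 3 of 3 of each mutant, at ranks 674, 284 and 1107 in CdxKO and 13416, 488 and 2291 in T/BraKO. In the complete lists of WT LEF1 replicates 2 and 3 the strongest peaks in the site had ranks 90249 and 22004. Their summits lay at −4451 and −2836 bp, so that of replicate 3 lay apart from the others. SOX2 missed the site only in WT CHIR replicates 1 and 2, whose strongest lower-ranked peaks there had summits at −2689 and −2823 bp. Each of these WT lists held further, weaker peaks in the site. Summits of those were not read, so a peak at the shared position is not excluded. In the libraries that called the site, the summit of the strongest peak fell between −4433 and −4364 bp for β-catenin and SOX2 and between −4547 and −4331 bp for LEF1. The site is long and some libraries had further, weaker peaks in it.

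Another site of Lef1, in an intron 34.0 kb downstream of the start, differed between groups for SOX2. Its ranks in the WT noCHIR libraries were 227, 267 and 353, with fold enrichments of 35.7, 46.5 and 22.1. None of the 3 WT CHIR libraries held it among their 20000 best, and in the complete lists only replicate 2 did, at rank 56082. In T/BraKO with CHIR it was present again in 3 of 3 libraries, but at ranks 12260, 8155 and 9592, and in CdxKO it was among the best in replicate 2 alone, at rank 4356. The printed window holds a SOX match, CCATTGT on the minus strand, 2 bases from the summit. Nearer the start, at 33.0 kb, β-catenin was called in 3 of 3 WT libraries (ranks 15622, 17423 and 9062) and in none of either mutant. That peak was weak, and the complete lists held it at rank 21737 in CdxKO replicate 2 and at rank 27156 in T/BraKO replicate 3. One more Lef1 site, named after its values were seen, lay at −663 bp in an exon of Gm43352 and was called in 9 of 9 β-catenin, 9 of 12 SOX2 and 0 of 9 LEF1 libraries.

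Tcf7 (chr11:52252371-52283014, minus strand) had the SOX2 site with the best mean log rank of the family. It lay between genes, 3.54 kb upstream, and was called in 12 of 12 SOX2 libraries. Its ranks were 480, 1502 and 186 in WT noCHIR, 64, 73 and 24 in WT CHIR, 22, 73 and 29 in CdxKO and 60, 92 and 23 in T/BraKO. All 9 libraries with CHIR thus ranked it above the 3 without, while the 3 genotypes with CHIR overlapped. Fold enrichment was 27.9 ± 10.7 in WT noCHIR, 43.2 ± 9.46 in WT CHIR, 53.7 ± 15.5 in CdxKO and 48.2 ± 8.56 in T/BraKO (SD, n = 3), and on that scale WT noCHIR and WT CHIR overlapped. The strongest SOX2 summits of the libraries fell within 47 bp of each other. β-catenin was called there in 7 of 9 libraries, at much lower ranks (4123 to 15115).

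The strongest LEF1 peaks at this Tcf7 site did not share the SOX2 summit. In the 3 CdxKO libraries they had ranks 15341, 5252 and 7984 and summits at −4042, −3885 and −4017 bp, against −3576 to −3529 bp for SOX2. In WT, LEF1 was among the best in replicate 1, with a summit at −3355 bp, and in T/BraKO in no library. Nearer the start, β-catenin was called in 9 of 9 libraries at ranks of 587 to 2329, and in every library but T/BraKO replicate 1 the strongest summit lay between −369 and −357 bp. That library had its strongest summit at −1408 bp. The −360 bp window carries CTTTGAT 6 bases from the summit. LEF1 was called at this start site in 4 of 9 libraries, at ranks 399 and 352 in WT replicates 1 and 2, 5082 in CdxKO replicate 3 and 7735 in T/BraKO replicate 3. Of these, only WT replicate 1 had its strongest LEF1 summit close to that of β-catenin, at −356 bp. In WT replicate 2, CdxKO replicate 3 and T/BraKO replicate 3 it lay apart, at −778 bp or further upstream. The best summit of the whole site falls in an exon of A630014C17Rik, a gene annotated beside Tcf7.

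**Figure D2:**
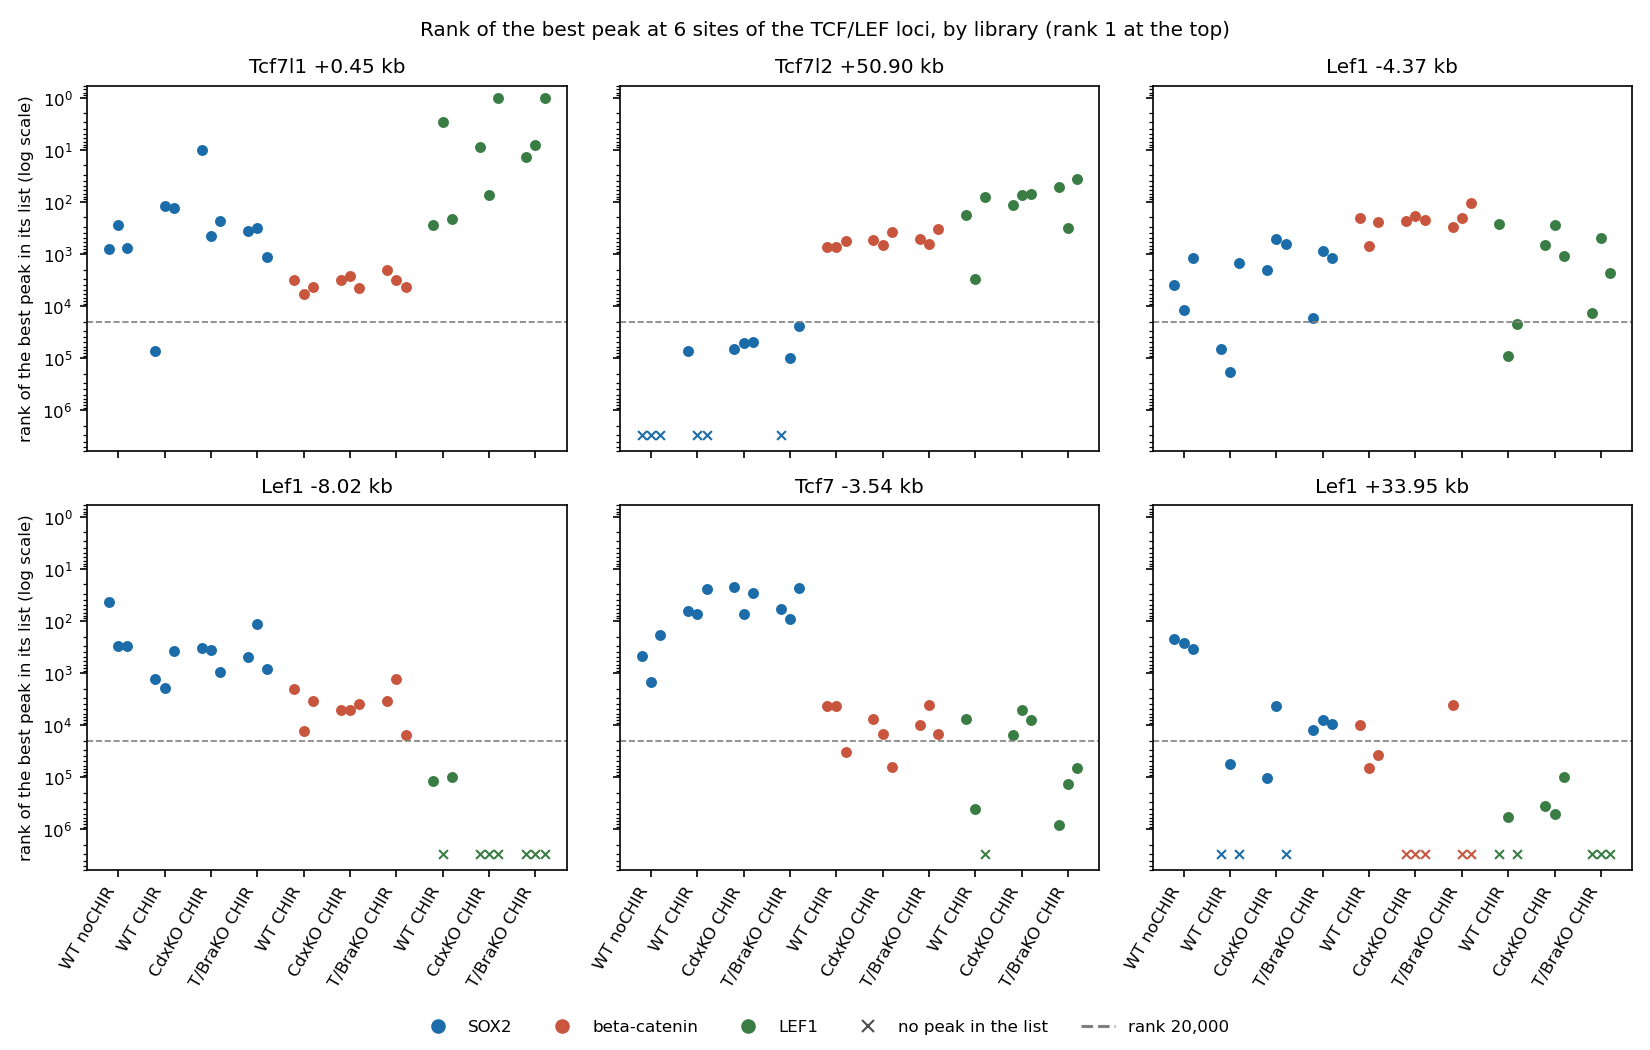
Rank of the strongest peak at 6 sites of the TCF/LEF loci in each of 30 libraries. The vertical axis is the rank in the library's complete list on a log scale with rank 1 at the top, points are libraries coloured by factor, crosses are libraries with no peak at the site and the dashed line is rank 20000. LEF1 reached rank 1 at the Tcf7l1 start, SOX2 lay below the line at the Tcf7l2 intron site, and at the Lef1 site 34.0 kb downstream the WT noCHIR SOX2 libraries stood far above the WT CHIR ones.

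Tcf7l1 (chr6:72626378-72789254, minus strand) encodes the repressing member. Its start carried the strongest LEF1 peak of the family, in a coding exon 0.45 kb downstream of the gene start. LEF1 ranks there were 278, 3 and 213 in WT, 9, 74 and 1 in CdxKO and 14, 8 and 1 in T/BraKO, so that in a library of each mutant it was the strongest peak of the whole list. Fold enrichment ran from 17.7 to 193, and was 50.8 ± 55.6 in WT, 78.3 ± 39.0 in CdxKO and 104 ± 77.3 in T/BraKO (SD, n = 3), a spread within groups as large as the differences between them. The site was called in 29 of 30 libraries, the exception being WT CHIR SOX2 replicate 1, whose list held it at rank 73807. Of 336403 sites in the series, 147 were called in at least 29 libraries, and this was the only one at the 4 loci. That threshold was taken from the calls of the site itself, so the count is a description. Only at this site of the family were SOX2, β-catenin and LEF1 each called in at least 2 of 3 WT CHIR libraries. In the series 690 sites met that rule (0.205%).

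The site at the Tcf7l1 start held separate summits. LEF1 summits lay between 426 and 644 bp downstream of the start in all 9 libraries. SOX2 had a near summit (415 to 629 bp) in 8 libraries and a far one (1130 to 1713 bp) in 10, with both in 7. In the 3 WT noCHIR libraries the strongest SOX2 summit was the far one, at 1694, 1695 and 1676 bp and ranks 816, 281 and 768, and a near peak appeared only in replicate 2, at rank 15547. In WT CHIR replicates 2 and 3 the strongest was the near one, at 442 and 441 bp and ranks 121 and 129. CdxKO had the near summit strongest in replicates 1 and 2 (ranks 10 and 451) and the far one in replicate 3 (rank 235). In T/BraKO it was the near one in replicate 1 (rank 364) and the far one in replicates 2 and 3 (ranks 325 and 1141). The near peak was thus among the 20000 best in 7 of the 9 SOX2 libraries with CHIR and 1 of the 3 without. This pattern was seen after the summits were plotted and was not tested. The complete lists of WT noCHIR replicates 1 and 3 each held 3 peaks in the site, and that of WT CHIR replicate 1 held 4. Summits of the weaker peaks in these lists were not read, so a near peak there is not excluded. β-catenin had a near summit (388 to 906 bp) in 8 libraries, at ranks of 2080 to 10963. A far one (1174 to 1770 bp) was found in 7, at ranks of 3180 to 12750, with both in 6 of 9. Summits were called near where they lay under 1000 bp from the start.

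**Figure D3:**
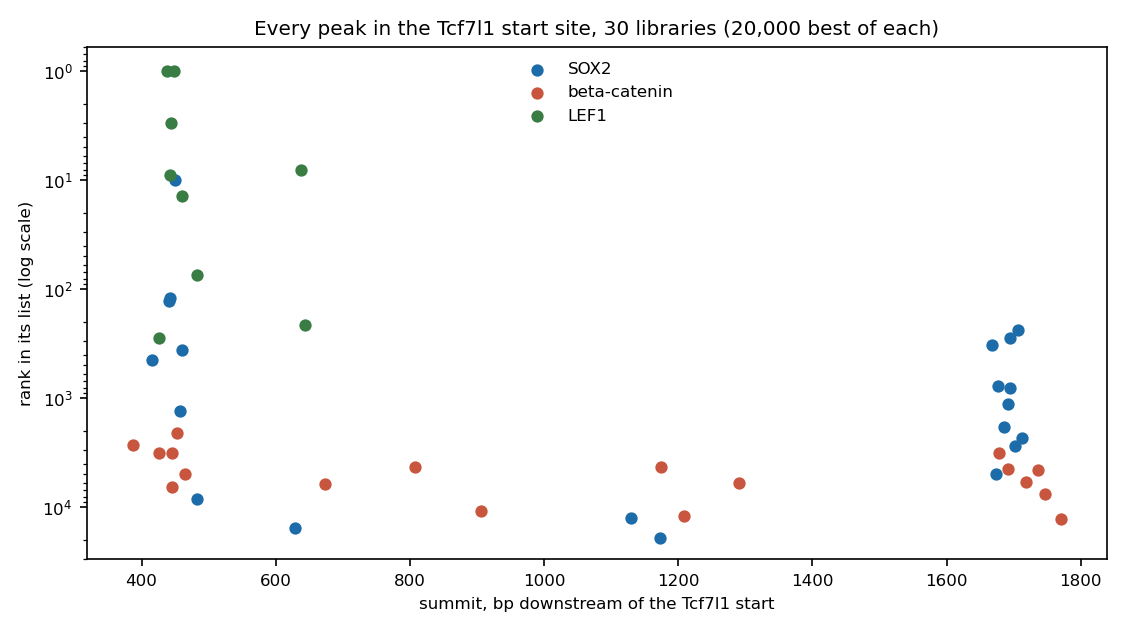
Every peak among the 20000 best of 30 libraries at the Tcf7l1 start. The horizontal axis is the position of the summit in bp downstream of the gene start, the vertical axis the rank of the peak in its list on a log scale with rank 1 at the top, and colours are factors. LEF1 summits gather between 426 and 644 bp, whereas SOX2 and β-catenin summits are also found further downstream, as far as 1770 bp.

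Of the 43 Tcf7l1 sites, SOX2 was called in some library at 26, β-catenin at 14 and LEF1 at 13. At the further Tcf7l1 sites described here, LEF1 was called in at most 2 of 9 libraries. In an intron 35.2 kb downstream β-catenin was called in 9 of 9 libraries (ranks 2062, 2715 and 5641 in WT, 3370, 3256 and 3211 in CdxKO, and 1538, 2057 and 1762 in T/BraKO), SOX2 in 9 of 12 and LEF1 in 2 of 9. All 3 T/BraKO libraries ranked this peak above the 3 of WT, by a small margin. At 30.7 kb downstream SOX2 was called in 3 of 3 WT noCHIR libraries (ranks 13561, 7244 and 9285) and in 0 of 3 WT CHIR libraries, whose complete lists held it at ranks 59363 and 35018 in replicates 2 and 3. It was called in 2 of 3 libraries of each mutant, and its window held the octamer but no SOX match. The region 5.18 kb upstream, between genes, was called for SOX2 in 3 of 3 libraries of WT noCHIR, CdxKO and T/BraKO but in 0 of 3 of WT CHIR. Its distance is that of a β-catenin summit, and the strongest SOX2 summits of those libraries lay between −6201 and −5394 bp. β-catenin was called at the site in 7 of 9 libraries and LEF1 in 2 of 9. The window of the strongest SOX2 summit was 37.2% GC, held repeats of AAAAC and TG, and matched none of the motifs searched. The complete lists of WT CHIR replicates 1 and 3 held it at ranks 30067 and 21775, with summits at −5425 and −5599 bp. The only peak of replicate 2 in the site, at rank 245024, had its summit at −4747 bp, outside this region.

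Tcf7l2 (chr19:55741820-55933654, plus strand), the longest of the 4, had one site at which β-catenin and LEF1 met without SOX2. It lay in an intron 50.9 kb downstream of the start. β-catenin was called in 9 of 9 libraries, with ranks of 746, 733 and 571 in WT, 550, 681 and 374 in CdxKO and 523, 656 and 340 in T/BraKO. LEF1 was called in 9 of 9, with ranks of 177, 2992 and 80 in WT, 117, 73 and 71 in CdxKO and 53, 317 and 37 in T/BraKO. SOX2 was called in 0 of 12. In the complete lists of 1 WT CHIR, 3 CdxKO and 2 T/BraKO SOX2 libraries a peak overlapped the site, at ranks of 23671 to 99892. Of all sites in the series 4 had this pattern. In 9 of 9 LEF1 libraries 232 were called, 2 of them at the TCF/LEF loci, here and at the Tcf7l1 start. Both patterns were taken from the calls of these sites, so the counts are descriptions.

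Fold enrichment at this intron of Tcf7l2 was 33.3 ± 8.65, 34.4 ± 8.41 and 40.2 ± 8.66 for β-catenin in WT, CdxKO and T/BraKO, and 19.6 ± 7.92, 29.4 ± 4.91 and 26.7 ± 7.97 for LEF1 (SD, n = 3). The β-catenin groups overlapped. For LEF1 the fold enrichments of WT (10.6 to 25.5) all lay below those of CdxKO (26.4 to 35.1), whereas the ranks of these groups overlapped, and T/BraKO overlapped both. This difference at a single site was seen in the values and was not tested. The strongest summits of both factors in each library fell between 50897 and 50970 bp, on either side of a single CTTTGAT (chr19:55792732-55792738), which began 12 bases from the strongest LEF1 summit. Nearby, 52.8 kb downstream, β-catenin was called in 3 of 3 T/BraKO libraries (ranks 5640, 10925 and 4494) and in 0 of 3 WT libraries, of whose complete lists that of replicate 2 held it at rank 76684. The strongest SOX2 site of Tcf7l2 spanned its start and reached into a UTR. SOX2 was called there in 10 of 12 libraries at ranks of 1779 to 19702 and with strongest summits of −301 to −80 bp, β-catenin in 6 of 9 and LEF1 in 2 of 9.

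Counted over whole loci, β-catenin had the highest mean number of peaks of the 3 factors at Lef1, Tcf7 and Tcf7l2 in each genotype with CHIR. At Tcf7l1 that held in WT, whereas SOX2 had the highest mean in each mutant. Lef1 held 9, 8 and 11 β-catenin peaks in the WT libraries, 7, 6 and 9 in CdxKO and 6, 7 and 7 in T/BraKO. Among all protein-coding loci its peaks per length stood between the percentiles 92.6 and 98.1. Its SOX2 peaks numbered 8, 7 and 5 in WT noCHIR, 4, 5 and 4 in WT CHIR, 5, 5 and 7 in CdxKO and 4, 8 and 6 in T/BraKO. LEF1 peaks at Lef1 itself were few in WT (4, 0 and 1) and T/BraKO (1, 3 and 3) and numbered 5, 3 and 7 in CdxKO.

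Tcf7 held 1 to 3 SOX2 peaks in every library, and 4, 6 and 2 β-catenin peaks in WT, 4, 5 and 3 in CdxKO and 4, 4 and 2 in T/BraKO. LEF1 peaks at Tcf7 numbered 4, 1 and 2 in WT, 1, 3 and 2 in CdxKO and 0, 0 and 3 in T/BraKO. Tcf7l1 had the widest range for SOX2, with 6, 12 and 9 peaks in WT noCHIR, 3, 3 and 7 in WT CHIR, 9, 7 and 7 in CdxKO and 7, 7 and 9 in T/BraKO. The WT CHIR group was the lowest of the 4, but its replicate 3 reached the others. Tcf7l2 had 1 to 6 SOX2, 3 to 7 β-catenin and 1 to 6 LEF1 peaks per library, and its groups overlapped in every comparison.

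**Figure D4:**
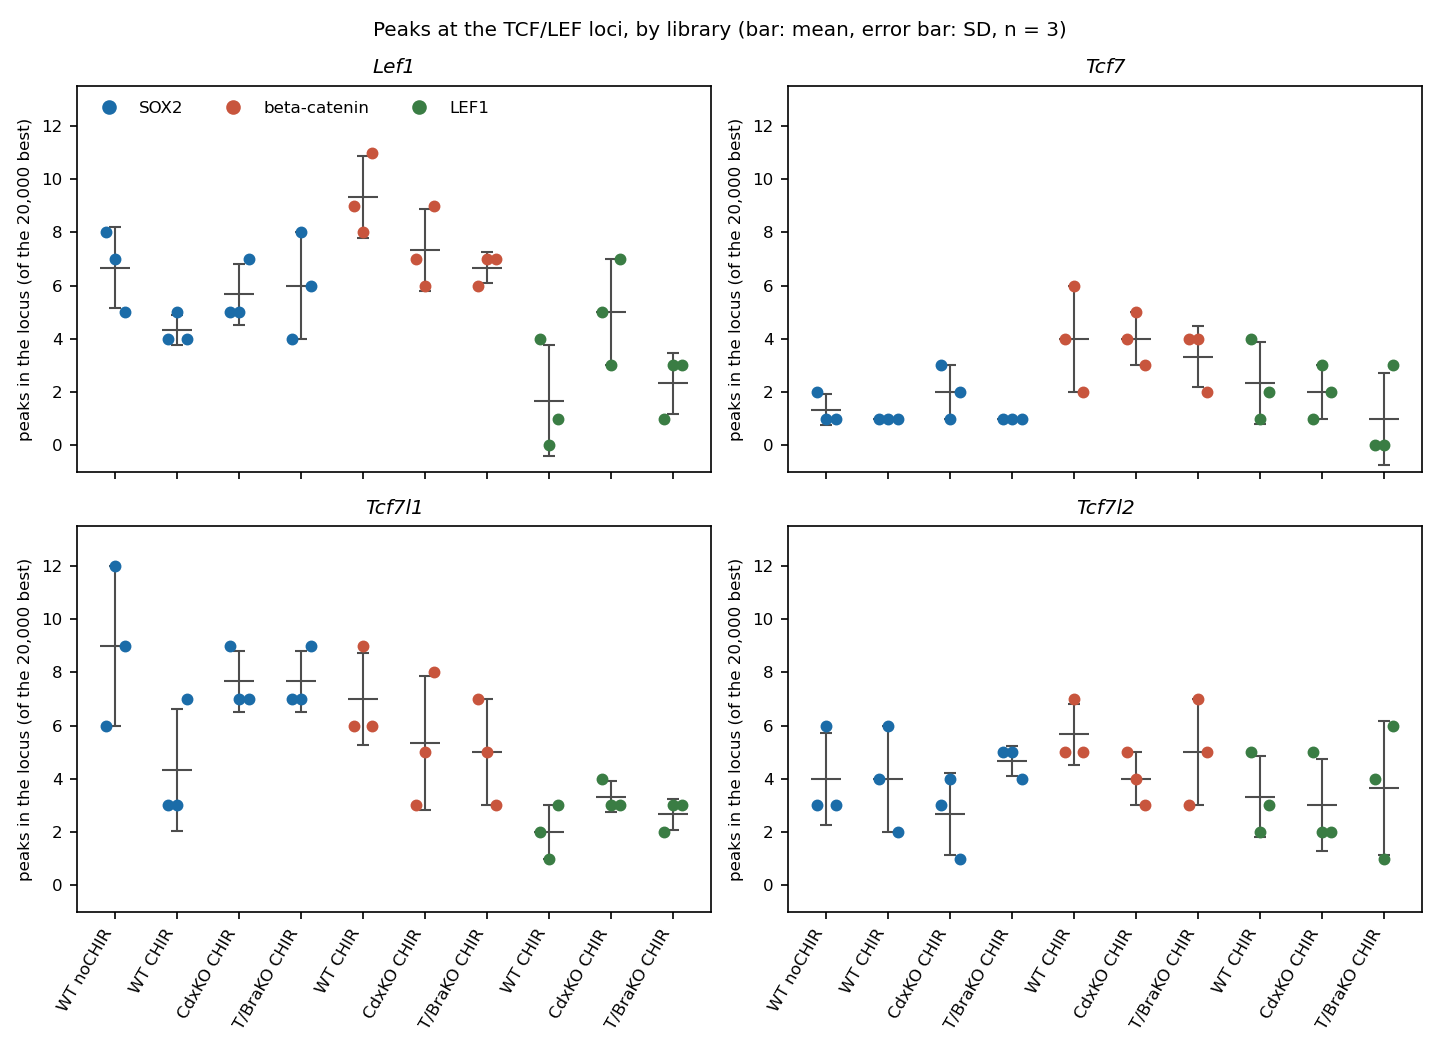
Number of peaks among the 20000 best at each of the 4 loci, by library. Points are libraries coloured by factor (vertical axis: peaks in the gene body extended by 10 kb), and horizontal bars with error bars are the mean and SD of 3 libraries. Groups overlap in nearly every comparison, and the exception is β-catenin at Lef1, where WT (8 to 11 peaks) lies above T/BraKO (6 and 7).

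Because the loci differ in length, levels were compared between genes as peaks per 100 kb. For β-catenin in WT the order was Tcf7 (7.90 ± 3.95), Lef1 (6.97 ± 1.14), Tcf7l1 (3.83 ± 0.947) and Tcf7l2 (2.68 ± 0.545, SD, n = 3), and neighbours in that order overlapped except Lef1 and Tcf7l1. The loci were read in the same libraries, and within each library Tcf7l1 also stood above Tcf7l2 (3.28 against 2.36, 4.92 against 3.30 and 3.28 against 2.36). For SOX2 in WT noCHIR it was Lef1 (4.98 ± 1.14), Tcf7l1 (4.92 ± 1.64), Tcf7 (2.63 ± 1.14) and Tcf7l2 (1.89 ± 0.818), and every neighbour in that order overlapped. For LEF1 in WT, Tcf7 was again first (4.61 ± 3.02), followed by Tcf7l2 (1.57 ± 0.721), Lef1 (1.24 ± 1.55) and Tcf7l1 (1.09 ± 0.547). Neighbours overlapped here too, although within each library Tcf7 stood above Tcf7l2 (7.90 against 2.36, 1.97 against 0.944 and 3.95 against 1.42). Tcf7l1, which held the strongest LEF1 peak, had the fewest LEF1 peaks per length.

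The difference in mean number of peaks per locus was tested in 7 comparisons with two-sided exact permutation tests, which with 3 against 3 libraries cannot give a p below 0.1. Lef1 for β-catenin was the only case of a member whose groups did not overlap, with 9.33 ± 1.53 peaks in WT and 6.67 ± 0.577 in T/BraKO (SD, n = 3), a difference of 2.67 with an exact p of 0.1 and an adjusted p of 1.00 over all loci (Benjamini-Hochberg). In that comparison 3.59% of 15808 loci did not overlap, so 1 of 4 members is no result about the family. The separation was lost with 5000 instead of 20000 best peaks, with the complete lists, with a −log10 q of at least 10, with peaks ranked by fold enrichment, and with the gene body extended by 0 or 50 kb. In each of the other 6 comparisons 0 of the 4 members were separated among the 20000 best. The share of all loci whose groups did not overlap there was 6.00% for SOX2 in WT CHIR against WT noCHIR, 3.91% and 3.24% for SOX2 in WT against CdxKO and T/BraKO, 2.87% for β-catenin in WT against CdxKO, and 2.77% and 2.96% for LEF1 in WT against CdxKO and T/BraKO. All of these exact permutation tests gave an adjusted p of 1.00. For SOX2 the direction depended on the length of the lists. In WT CHIR against WT noCHIR, the difference at Lef1 was −2.33 peaks among the 20000 best and 23.7 in the complete lists, at Tcf7 it was −0.333 and 8.0, and at Tcf7l2 it was 0 and 38. In the complete lists, of which those of WT CHIR were the longer, these 3 members were separated (exact permutation p = 0.1 and adjusted p = 0.299 for each). In the complete lists 1 member was also separated for SOX2 in WT against each mutant. The share of all loci separated in the complete lists was not computed, so these counts are no result about the family.

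With all 3 genotypes together (exact permutation over 280 partitions of 9 libraries, smallest p 0.00357), genotype accounted for 2.78% to 58.1% of the variation in peaks at a member. The highest shares were 58.1% for SOX2 at Tcf7l1 (exact p = 0.179) and 53.6% for β-catenin at Lef1 (exact p = 0.1), and all adjusted p were 1.00. Over all loci the mean share was 25.1% to 26.9%. No locus of the genome passed an adjusted p of 0.05, and 316 to 396 had an unadjusted exact permutation p under 0.05.

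The difference between SOX2 in WT CHIR and WT noCHIR was also read from the strongest peak of each locus. At Lef1 its rank was 43, 267 and 307 without CHIR and 1335, 1937 and 376 with it, and at Tcf7 it was 480, 1502 and 186 without and 64, 73 and 24 with it. Lef1 thus ranked higher without CHIR and Tcf7 higher with it, by −0.81 and 1.03 on the log10 scale (positive where WT CHIR ranked higher), each with an exact permutation p of 0.1 and an adjusted p of 0.490. Groups failed to overlap in this measure at 20.4% of 13493 loci, so the separation of 2 of 4 members is common in this comparison. At Tcf7l1 and Tcf7l2 the groups overlapped. For β-catenin the strongest Tcf7l1 peak ranked higher in T/BraKO (1538, 2057 and 1762) than in WT (2062, 2715 and 2781; exact permutation p = 0.1, adjusted p = 0.643), where 15.6% of 8387 loci did not overlap.

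At the level of single regions, 3 of 48 SOX2 regions at the 4 loci (6.25%) were called in 3 of 3 WT noCHIR and 0 of 3 WT CHIR libraries, namely those 34.0 kb downstream of Lef1 and 30.7 kb downstream and 5.18 kb upstream of Tcf7l1. The same rule held for 4.03% of all SOX2 regions in either direction. Leaving out WT CHIR SOX2 replicate 1, whose list stood apart in length, gave 3 regions of 42, but leaving out WT CHIR replicate 3 gave 5 of 45 (11.1%) and leaving out WT noCHIR replicate 3 gave 6 of 44 (13.6%). With a library left out, its group needed only 2 libraries to agree, which is a looser rule. The share of all regions under that rule was not computed, so these shares cannot be set beside the 4.03%. Between WT and CdxKO it was 1 of 42 SOX2 regions (2.38%, against 1.01% of all), the one 5.18 kb upstream of Tcf7l1. Between WT and T/BraKO it was 2 of 49 (4.08%, against 0.757%), the same Tcf7l1 region and that in Lef1. All of these lacked SOX2 peaks among the 20000 best of the shared WT CHIR libraries, and the lower-ranked peaks of the complete lists are given with each site above. At the Tcf7l1 region 5.18 kb upstream, that of WT CHIR replicate 1 exceeded the called T/BraKO peaks in fold enrichment and −log10 q.

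For β-catenin, 1 of 48 regions differed between WT and CdxKO (2.08%, against 0.825% of all regions) and 2 of 45 between WT and T/BraKO (4.44%, against 1.42%). They were the Lef1 region at 33.0 kb, which among the 20000 best was called in WT only, and the Tcf7l2 region at 52.8 kb, which was called in T/BraKO and not in WT. For LEF1, 1 of 47 regions differed between WT and CdxKO (2.13%, against 0.130%), the one upstream of Tcf7, and 0 of 41 between WT and T/BraKO (against 0.120%). With so few regions per comparison, 1 region more or less decides the share. The background for each factor, SOX2 included, takes every region with a peak in at least 1 of the 6 libraries. Sites called in at least 15 libraries were a larger part of these loci (6.99%, against 1.28% of all sites). The shares therefore do not compare like sets of regions, and no excess can be read from them.

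Motif letters within 100 bases of the summit were counted at the family's regions and at all regions of the factor. TCF/LEF letters stood at 13 of 55 β-catenin regions (23.6%, against 19.4% of all β-catenin regions), at 14 of 63 LEF1 regions (22.2%, against 15%) and at 7 of 70 SOX2 regions (10.0%, against 10.5%). Among regions called in at least 5 libraries, they stood at 7 of 14 for β-catenin (against 45.7% of all such regions) and at 2 of 3 for LEF1 (against 69.1%). For SOX2 it was 4 of 14 (against 13.6%). The one LEF1 region of those without them was the Tcf7l1 start. SOX letters stood at 16 of 70 SOX2 regions (22.9%, against 17.0%), but among those called in at least 5 libraries at 4 of 14, against 33.0% of all such regions. The octamer stood at 3 of the 70 (4.29%, against 2.63%) and at 2 of the 14 (against 5.97%). CDX letters stood at 7 of 70 SOX2, 8 of 55 β-catenin and 6 of 63 LEF1 regions (14.2%, 13.3% and 14.8% of all). Among those called in at least 5 libraries they stood at 2 of 14, 4 of 14 and 0 of 3 (9.75%, 12.3% and 9.39% of all such regions). T-box letters stood at 2 β-catenin regions and no other. None of these counts was tested.

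Other genes of the pathway showed as little difference between groups. Of 10 feedback targets and receptors and 11 partners of TCF/LEF proteins, groups did not overlap for at most 1 gene of a list in a comparison. For SOX2, Tle1, a corepressor that TCF/LEF proteins recruit, had 3, 2 and 2 peaks in WT noCHIR and 1, 0 and 1 in WT CHIR. Axin2, a scaffold of the β-catenin destruction complex, had 3, 3 and 5 in WT and 6, 6 and 8 in CdxKO, and Dkk1, a secreted WNT inhibitor, had 2, 1 and 2 in WT and 3, 3 and 4 in T/BraKO. For LEF1, Notum, an enzyme that inactivates WNT ligands, had no peak in WT and 1, 3 and 1 in CdxKO. Ctnnb1, the gene of β-catenin, had 1, 1 and 2 LEF1 peaks in WT and none in CdxKO, and Nkd2, a negative regulator of the pathway, had none in WT and 1 in each T/BraKO library. For β-catenin no gene of either list was separated. The background shares are those given for loci above.

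The genes whose peak numbers varied most like a member's over the 30 libraries were taken by Pearson correlation of log2(peaks + 1) among 11738 or 11739 loci. They were Vangl1, Igdcc4 and Eno1 for Lef1 (r of 0.834, 0.826 and 0.816), Tceal7, Ms4a6b and Lpcat2 for Tcf7 (0.769, 0.723 and 0.711), Rbpms, Gja1 and Cmtm5 for Tcf7l1 (0.853, 0.810 and 0.809) and Uqcc2, Osbpl10 and Aak1 for Tcf7l2 (0.648, 0.604 and 0.575). The 30 points mix 3 antibodies, which the points of a library share, and the values carry no test.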

How the data were processed

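ChIP-seq of SOX2, β-catenin and LEF1 was analysed from 30 immunoprecipitated mouse libraries in 10 groups of 3; 12 input samples were not analysed here. Per the study's methods, the authors trimmed single-end reads with Trim Galore, aligned them to mm10 with BWA and called narrow peaks per library with MACS. The sources used here do not name the control input of each library. Of the deposited columns, the ratio gives fold enrichment at the summit, the −log10 p-value and −log10 q-value come from the caller, and the score was not used. The lists hold no read counts, so depth is unknown and count tests could not be run.

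Peaks on autosomes, X and Y were ranked by −log10 q, and the 20000 best per list were used. Genes were those of GENCODE M21 (GRCm38, the build of the lists). A locus was the gene body extended by 10 kb, and 1 bp of overlap placed a peak in it. Peaks of a factor that overlapped were merged into regions, and those of all factors into sites. The 7 comparisons used exact permutation tests over all loci with a peak, with Benjamini-Hochberg adjustment and 0.05 as the threshold, and were checked on simulated data. Regions were named by 3 rules: the best mean log rank of a factor at a member, calls in every library of a group with none in the group it was compared with, and calls of all 3 factors in WT CHIR. Replicate numbers did not pair the libraries, and no covariate was used. Members, gene lists, motifs and tests were chosen with earlier results of these data known. Python 3.11.15, numpy 2.4.6, pandas 2.3.3 and pysam 0.24.0 were used. No libraries had identical files.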

Additional observations from a re-analysis of the deposited data

How the results depend on the processing

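Differences are first group minus second in mean peaks per locus, "separated" counts members whose groups do not overlap, and region counts are those called in 3 of 3 against 0 of 3 libraries; where a value changed, the cause was not tested. The differences turned direction in 11 of 168 leave-one-out values and 33 of 252 others, and a difference that was 0, or became 0, was not counted as turned. No share of variation between genotypes passed the threshold under any setting, and among the 20000 best no locus of the genome passed it, so this says nothing of stability. With no read totals, depth could not be weighed. Shares of all loci or regions were computed only for the 20000 best with every library, so the counts below have no background beside them. Leaving out a library also loosened the rules for its group.

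With the 5000 best, differences were 0.333 and 0.667 for Lef1 SOX2 against CdxKO and T/BraKO and −0.333 for Lef1 and Tcf7l1 β-catenin against T/BraKO; separated members were 1 for β-catenin and LEF1 against CdxKO and 0 for β-catenin against T/BraKO, and regions were 1 for SOX2 with CHIR and 0 for SOX2 against both mutants, β-catenin against T/BraKO and LEF1 against CdxKO. With complete lists, SOX2 differences were 23.7, 8.0, 20.0 and 38 at Lef1, Tcf7, Tcf7l1 and Tcf7l2 with CHIR, 29.3, 4.00 and 23.7 against CdxKO, and 30.0, 24.3 and 36 at Lef1, Tcf7l1 and Tcf7l2 against T/BraKO. LEF1 differences against CdxKO were −2.33 at Tcf7 and −23.3 at Tcf7l2. Separated members were 3, 1 and 1 for SOX2 and 0 for β-catenin against T/BraKO, and regions were 2 and 0 for SOX2 against the mutants, 0 for β-catenin against T/BraKO, and 9 and 7 for LEF1. With −log10 q of at least 10, differences were 0.333 (Tcf7 SOX2 against CdxKO), 1.67, 0.667 and 2.00 (Lef1, Tcf7l1 and Tcf7l2 SOX2 against T/BraKO), −0.333 (Tcf7l1 β-catenin against T/BraKO) and −1.0 (Tcf7l2 LEF1 against CdxKO); separated members for β-catenin were 1 and 0, and regions were 0 for SOX2 against both mutants, β-catenin against T/BraKO and LEF1 against CdxKO. Ranked by fold, separated members were 1 in each SOX2 comparison and 0 for β-catenin against T/BraKO, Tcf7l2 LEF1 against CdxKO was −0.333, and regions were 0 and 1 for β-catenin and 0 for LEF1 against CdxKO. With 0 kb added to the gene, Lef1 SOX2 against CdxKO was 0.333, with 50 kb Tcf7 LEF1 against CdxKO was −0.667, and both separated 0 members for β-catenin against T/BraKO. Joining summits within 200 bp left 1 SOX2 region against T/BraKO.

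The log10 rank of the best peak turned direction for SOX2 with CHIR at Tcf7 (1.03) and Tcf7l1 (0.147), for SOX2 at Tcf7l1 against T/BraKO (0.203), for β-catenin at Lef1 and Tcf7l2 against CdxKO (−0.177 and −0.116), for β-catenin at Lef1, Tcf7l1 and Tcf7l2 against T/BraKO (−0.238, −0.149 and −0.143), and for LEF1 at Tcf7l2 against CdxKO (−0.615).

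Replicate numbers did not pair the libraries (correlations of same-numbered libraries of −0.0373 to 0.0337). With a replicate block, separated members were 2, 1 and 1 in the SOX2 comparisons, 1 for β-catenin against CdxKO and 1 for LEF1 against CdxKO.

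Without 1 library each, differences ranged from −1.83 to 0.167 (Lef1 LEF1 against T/BraKO), −0.500 to 1.00 and −0.500 to 1.33 (Tcf7 and Tcf7l2 LEF1 against CdxKO), −0.333 to 1.67 (Tcf7 and Tcf7l2 β-catenin against T/BraKO), −1.67 to 0.833 (Tcf7l2 LEF1 against T/BraKO) and −1.67 to 0.333 (Tcf7l2 SOX2 against T/BraKO). Separated members ranged from 0 to 1 for SOX2 and LEF1, 0 to 2 for β-catenin against CdxKO and 1 to 2 against T/BraKO. Regions ranged from 3 to 6 for SOX2 with CHIR (5 without WT CHIR replicate 3, 6 without WT noCHIR replicate 3), 1 to 2 for SOX2 against CdxKO (2 without WT replicate 3, CdxKO replicate 2 or 3), 1 to 3 for β-catenin against CdxKO (3 without CdxKO replicate 2), 1 to 4 for LEF1 against CdxKO (4 without CdxKO replicate 2, 2 without WT replicate 1 or CdxKO replicate 3) and 0 to 1 for LEF1 against T/BraKO (1 without WT replicate 1).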
